A study of Mus musculus with 6 samples.

Results

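Tuft cell genes were followed in bulk RNA-seq of mouse Paneth cells, which are the secretory cells at the base of the small intestinal crypts. The 9 genes were Dclk1, Trpm5, Avil, Gfi1b, Pou2f3, Sh2d6, Il25, Alox5ap and Plcg2, taken as a fixed list from the 55414 gene identifiers of the count table. All 9 were found by gene identifier and all 9 had at least 10 counts over the 6 libraries. The question was whether these genes rise together in single libraries or separately, and which part of all counts they take.

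FACS was used to isolate these cells from small intestine; the animals were of WT genotype, and C57BL/6J per the methods of the study. For 7 weeks the mice of 3 libraries were fed standard chow and those of the other 3 libraries zinc depleted chow. Tumor necrosis factor (TNF) was then given to the mice of both groups for 3 hours. The design text speaks of 4 biological replicates per group, while 3 per group are labelled and were analysed here. All mice received TNF, so neither the effect of TNF nor an untreated level can be read from these libraries.

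Total counts ranged from 6139397 in standard diet replicate 2 to 12772373 in zinc depleted replicate 3. The library with the highest tuft gene levels, standard diet replicate 2, was thus the shallowest. Levels are given as CPM, in which counts are scaled to a common library total. Where no count was found, up to 3 counts remain possible, equal to 0.235 to 0.489 CPM depending on the library. Markers of the labelled cell type were high in each library: Lyz1, the Paneth cell lysozyme, was at 119500 to 192200 CPM and the alpha-defensin Defa24 at 212900 to 305600 CPM. The alpha-defensins and other Paneth products, 33 genes, took 65.6% to 83.8% of the counts, so all other genes share the remainder.

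Tuft cells are rare chemosensory epithelial cells of the intestine, with a bundle of stiff microvilli at the lumen. They sense luminal metabolites through a taste-like cascade, in which a G protein activates a phospholipase C, calcium is released from stores and the channel Trpm5 depolarises the cell. They release the cytokine interleukin-25 and lipid mediators made from arachidonic acid, which act on immune cells in the lamina propria, as known from responses to parasitic worms. The transcription factor Pou2f3 is needed for their formation.

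The promoter of Trpm5 is shown because this gene held the most counts of the 9. The sequence holds the 250 bases before the start of the Ensembl canonical transcript on GRCm39, 5′ to 3′ on the strand of the gene, at chr7:142648380-142648629 on the minus strand.
Trpm5: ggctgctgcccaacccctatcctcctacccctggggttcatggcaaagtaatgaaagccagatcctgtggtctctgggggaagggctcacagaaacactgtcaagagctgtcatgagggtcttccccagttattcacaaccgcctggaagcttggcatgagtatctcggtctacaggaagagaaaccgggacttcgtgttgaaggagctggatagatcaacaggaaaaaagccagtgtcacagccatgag
The core of the sites known for the GFI family of repressors, AATCNNNGC, was searched on both strands of such windows. It was in 10.1% of the 21627 promoters of this length and, among the 9 genes, in those of Avil and Plcg2. The Trpm5 window held no match. A match describes the letters of a window and not binding.

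Every one of the 9 genes was highest in standard diet replicate 2, and each was there at least 2-fold above every other library. The fold over the second-highest library ran from 2.22 for Plcg2 to 4.83 for Dclk1. Of all 12575 genes with at least 10 counts, 19.9% were highest in standard diet replicate 2 and 3.05% were at least 2-fold above every other library there. With the trimmed mean of M-values (TMM) normalization, which sets the bulk of genes level, all 9 again had their highest value in that library and all 9 again lay at least 2-fold above the others, while 15.1% and 1.81% of all genes did so. Il25 had 12 of its 18 counts in that library and reached the minimum of 10 counts only through it. The filter thus helped to place Il25 among the 9. The other 8 genes kept at least 10 counts without that library. These genes thus had their high values together, in 1 library of the standard diet group, and not separately, while Il25 was too low to add to this.

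Pou2f3 (chromosome 9, 43035228 to 43121666, minus strand, GRCm39) encodes the POU factor of the tuft lineage. Its counts in standard diet replicates 1, 2 and 3 were 37, 140 and 7, and in zinc depleted replicates 1, 2 and 3 they were 79, 18 and 18. On the CPM scale these were 5.04, 22.8 and 0.702 in the standard diet group and 7.91, 2.42 and 1.41 in the zinc depleted group. Standard diet replicate 2 was 2.88-fold above zinc depleted replicate 1, and standard diet replicate 3 was the lowest of all 6, so the standard diet group spanned the zinc depleted group. Gfi1b (chromosome 2, 28499462 to 28511994, minus strand) encodes a zinc finger repressor that tuft cells share with red cell and platelet precursors. Its 68 counts were spread as 7, 36 and 1 in the standard diet group and 18, 6 and 0 in the zinc depleted group. The absence of counts in zinc depleted replicate 3 leaves up to 3 counts possible (0.235 CPM), and the single count in standard diet replicate 3 was 0.100 CPM. The 2 regulators therefore had the same leading library although Gfi1b was at counts too low to order the other libraries firmly.

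Dclk1 (chromosome 3, 55149618 to 55446493, plus strand) encodes a microtubule-associated kinase and is a widely used tuft cell marker. Standard diet replicates 1, 2 and 3 held 321, 1459 and 54 counts of it, against 492, 79 and 20 in the zinc depleted replicates. As CPM, standard diet replicates 1, 2 and 3 were at 43.7, 237.6 and 5.41, and zinc depleted replicates 1, 2 and 3 at 49.2, 10.6 and 1.57. The level in standard diet replicate 2 was 151.8-fold that of zinc depleted replicate 3, the widest span among the 7 genes with at least 100 counts. Avil (chromosome 10, 126836578 to 126856863, plus strand) encodes advillin, an actin-binding protein of the villin family. It reached 41.3, 188.6 and 6.31 CPM in the standard diet libraries and 50.9, 13.5 and 5.40 CPM in the zinc depleted libraries. Avil fell in the same order of libraries as Dclk1, with a narrower span of 34.9-fold.

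Trpm5 (chromosome 7, 142622890 to 142648379, minus strand), the cation channel of the taste-like cascade, was at 53.3, 212.2 and 9.22 CPM in the standard diet libraries. In the zinc depleted libraries it was at 66.6, 30.3 and 16.8 CPM. All 3 zinc depleted libraries lay between the lowest and the highest standard diet library. Plcg2 (chromosome 8, 118224988 to 118361881, plus strand) encodes a phospholipase C that produces inositol trisphosphate downstream of tyrosine kinases. It was at 17.0, 67.9 and 4.01 CPM in the standard diet group and at 30.6, 9.56 and 2.11 CPM in the zinc depleted group. The value in zinc depleted replicate 1 came closer to that of standard diet replicate 2 for Plcg2 than for any other of the 9 genes. Sh2d6 (chromosome 6, 72490624 to 72498690, minus strand) encodes an SH2 domain adaptor. Its CPM values were 18.1, 80.3 and 3.01 in the standard diet group and 17.4, 8.61 and 3.52 in the zinc depleted group, so standard diet replicate 1 and zinc depleted replicate 1 were nearly level.

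Alox5ap (chromosome 5, 149196003 to 149227762, plus strand) encodes the protein that hands arachidonic acid to 5-lipoxygenase in leukotriene synthesis. It was at 32.7, 93.2 and 6.01 CPM in the standard diet group and at 18.8, 14.4 and 9.63 CPM in the zinc depleted group. It had the narrowest span of the 7 genes with at least 100 counts, 15.5-fold, and was higher in standard diet replicate 1 than in zinc depleted replicate 1. Il25 (chromosome 14, 55170152 to 55173294, plus strand), the cytokine, had 18 counts in all. Of these, 12 fell in standard diet replicate 2, 3 in standard diet replicate 1, 1 in zinc depleted replicate 1 and 2 in zinc depleted replicate 2. The exact Poisson 95% interval in standard diet replicate 2 was 1.01 to 3.41 CPM and that of standard diet replicate 1 was 0.0843 to 1.2 CPM, so these overlap. The counts of 0 in standard diet replicate 3 and zinc depleted replicate 3 allow up to 0.301 and 0.235 CPM.

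**Figure D1:**
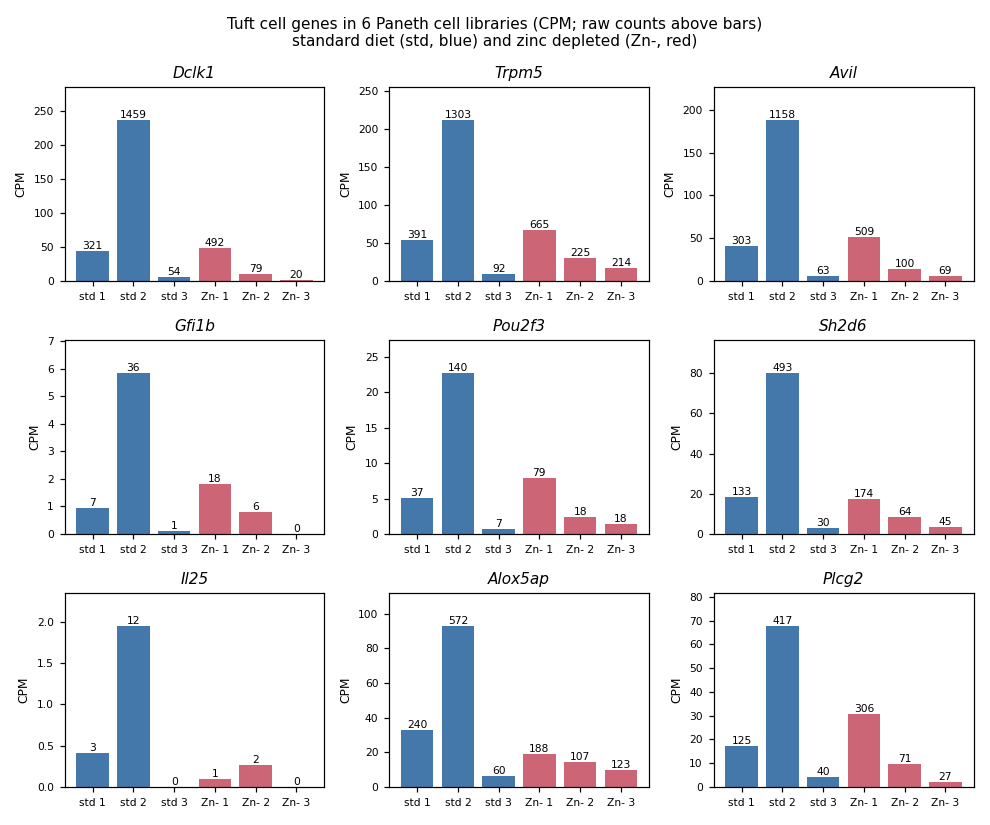
Each panel plots 1 gene, with the 6 libraries on the x axis (std, standard diet; Zn-, zinc depleted; numbers are replicates), CPM on the total counts on the y axis as bars from 0, and the raw count above each bar. The bar of standard diet replicate 2 is the tallest in all 9 panels, with 1459 counts for Dclk1 and 12 for Il25.

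Per kilobase of canonical transcript, the levels of the genes can be set beside each other. In standard diet replicate 2, Avil was at 62.2, Sh2d6 at 58.2 and Trpm5 at 51.5 CPM per kilobase. Alox5ap followed with 33.4 and Dclk1 with 29.3, Plcg2 was at 15.7, and the transcription factors Pou2f3 and Gfi1b were at 9.04 and 3.22, with Il25 at 1.84. Gfi1b and Il25 were the 2 lowest in every library, tied at 0 in zinc depleted replicate 3. Trpm5 was the first of the 9 in standard diet replicate 3 and in zinc depleted replicates 2 and 3, and Avil was first in the other libraries. Avil overlaps Tsfm and Trpm5 overlaps Tssc4 on the opposite strand, and whether strand was used in counting is not given in the sources used here. Tsfm and Tssc4 had 289 and 292 counts over all libraries, against 2202 for Avil and 2890 for Trpm5, and without strand the reads of each overlapping pair cannot be told apart.

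Together the 9 genes took 0.0911% of the counts of standard diet replicate 2 (Wilson 95% interval 0.0887 to 0.0935). The share was 0.0213% in standard diet replicate 1 and 0.00348% in standard diet replicate 3. In the zinc depleted group it was 0.0243%, 0.00904% and 0.00404% for replicates 1, 2 and 3. The highest share was 26.2-fold the lowest and 3.74-fold the second, and standard diet replicate 2 held 5590 counts of the 9 genes, 50.3% of those in all libraries. The Wilson intervals of standard diet replicate 3 (0.00313 to 0.00386) and zinc depleted replicate 3 (0.00371 to 0.00440) overlapped, and those of the other libraries did not overlap with any. The intervals cover counting error alone and not the spread between libraries. No molecular identifiers separate reads from copies of the same molecule, so the intervals may also be too narrow for counting error. In bulk RNA, fewer cells of a type and less RNA per cell cannot be told apart.

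Paneth products differ in their share between libraries, so the shares were also taken of the counts outside them. The 9 genes then took 0.0618%, 0.292% and 0.0167% in standard diet replicates 1, 2 and 3. The zinc depleted replicates had 0.0831%, 0.0494% and 0.0249%. The order of the libraries was the same with either total, and standard diet replicate 2 stayed apart.

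The 7 genes with at least 100 counts were set relative to their level in standard diet replicate 2. In standard diet replicate 1 they were at 18.4% to 35.1% of that level, with a median of 22.6%. In zinc depleted replicate 1 they were at 20.2% to 45.1%, with a median of 27.0%. In the other 3 libraries the medians were 3.74% for standard diet replicate 3, 10.7% for zinc depleted replicate 2 and 4.39% for zinc depleted replicate 3. The median over the tested genes with at least 100 counts, 8790 genes, was 114% in standard diet replicate 1, 59.9% in standard diet replicate 3, and 94.7%, 41.3% and 29.1% in zinc depleted replicates 1, 2 and 3. Relative to standard diet replicate 2, the 7 genes had a lower median than all tested genes in each of the 5 libraries. In part this follows from the reference, since each of the 7 was at least 2-fold higher there than elsewhere. The 7 were closest to each other in standard diet replicate 1 and zinc depleted replicate 1.

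**Figure D2:**
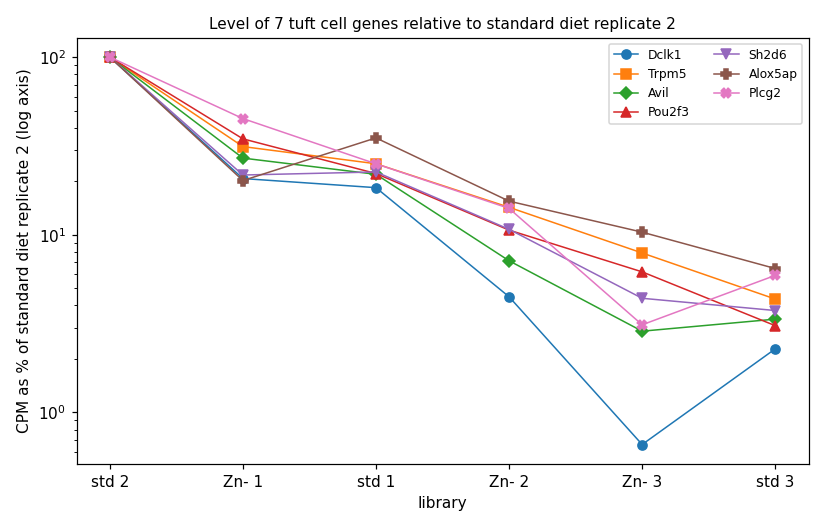
The y axis is the CPM of each gene as a percent of its CPM in standard diet replicate 2 on a log axis, the x axis lists the 6 libraries in falling order of the summed CPM, and each line is 1 of the 7 genes with at least 100 counts. All lines start from their highest point, standard diet replicate 2, and some rise between later libraries, such as Alox5ap from 20.2% in zinc depleted replicate 1 to 35.1% in standard diet replicate 1. Dclk1 is lowest in 4 of the 5 libraries, down to 0.659% in zinc depleted replicate 3.

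The 5 libraries below the first did not have the genes in fixed proportion. Dclk1 made up 26.1% of the counts of the 9 genes in standard diet replicate 2, 20.6% and 15.6% in standard diet replicates 1 and 3, and 20.2%, 11.8% and 3.88% in zinc depleted replicates 1, 2 and 3. Trpm5 went the other way, from 23.3% in standard diet replicate 2 to 33.5% and 41.5% in zinc depleted replicates 2 and 3. There were 10.7 counts of Trpm5 for each count of Dclk1 in zinc depleted replicate 3, against 0.893 in standard diet replicate 2 and 2.85 in zinc depleted replicate 2. Alox5ap ran from 7.73% in zinc depleted replicate 1 to 23.8% in zinc depleted replicate 3. Sh2d6, by contrast, kept to 7.16% to 9.52% in all 6 libraries.

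The Dclk1 value in zinc depleted replicate 3 rests on 20 counts (exact Poisson 95% interval 0.957 to 2.42 CPM). Dclk1 has the longest canonical transcript of the 9 genes, 8110 bases. Across the 8790 tested genes, Spearman's rho of transcript length with the level relative to standard diet replicate 2 was -0.444 in zinc depleted replicate 3 and 0.279 in zinc depleted replicate 1, and across the 36 tuft genes with at least 100 counts it was -0.267 and 0.365. These values are across genes of 1 pair of libraries, which are not independent, and the part of transcript length in the make-up of the tuft counts was not tested.

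**Figure D3:**
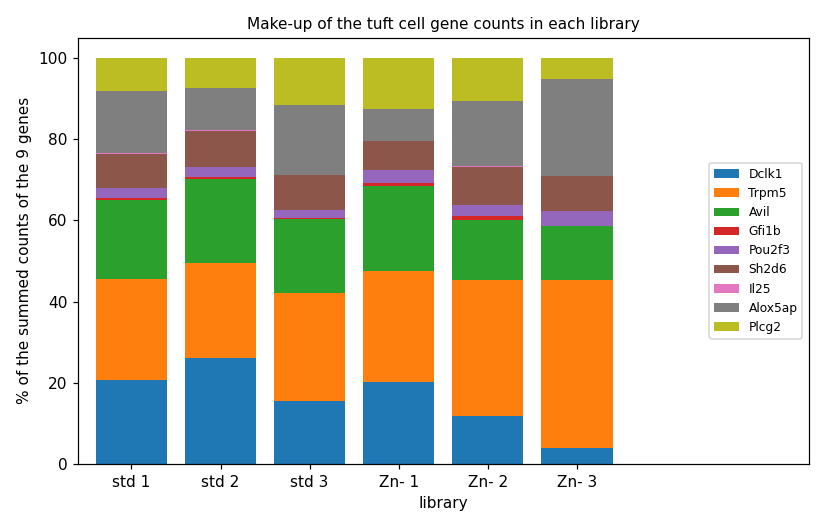
Stacked bars give the share of each of the 9 genes in their summed counts (y axis, percent) for each of the 6 libraries (x axis; std, standard diet; Zn-, zinc depleted). The Dclk1 part shrinks from 26.1% in standard diet replicate 2 to 3.88% in zinc depleted replicate 3, while that of Trpm5 grows from 23.3% to 41.5%.

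Among the 5 libraries other than standard diet replicate 2, the leading library depended on the scaling. On total counts, zinc depleted replicate 1 was highest among the 5 for 6 of the 8 genes that kept at least 10 counts, and 31.5% of all genes were highest there. These 6 were Dclk1, Trpm5, Avil, Gfi1b, Pou2f3 and Plcg2, while Sh2d6 and Alox5ap were highest in standard diet replicate 1. With TMM normalization zinc depleted replicate 1 was highest for 4 of the 8 (23.3% of all genes), and zinc depleted replicate 2 for the other 4, Trpm5, Gfi1b, Sh2d6 and Alox5ap (12.6% of all genes).

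The diet comparison asks whether the zinc depleted group differs from the standard diet group in these genes. The edgeR test called 0 of 9749 genes (0%) at an adjusted p under 0.05, with 645 genes at an unadjusted p under 0.05, and DESeq2 called 10 genes and limma-voom 0. None of the tuft cell genes was called by any of the 3. All 7 genes that passed the filter on low counts had lower values in the zinc depleted group by edgeR, with a median log2 fold change of -0.64 beside 0.00 for all genes, yet none reached an unadjusted p under 0.05, while 4.03% of all genes were lower at that level. Gfi1b and Il25 did not pass the filter. Group means showed the spread: Dclk1 was at 95.6 ± 124.5 CPM on standard diet and 20.5 ± 25.3 on zinc depleted diet, and Trpm5 at 91.6 ± 106.8 and 37.9 ± 25.8 (mean ± SD, n = 3).

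The groups overlapped for each of the 9 genes. The share of all genes with overlapping groups was not taken, so this is not a trait particular to the 9. By edgeR's quasi-likelihood test with Benjamini-Hochberg adjustment, Dclk1 had a log2 fold change of -1.80 (SE 1.01, adjusted p = 0.681). That of Avil was -1.20 (SE 0.82, adjusted p = 0.707) and that of Sh2d6 was -1.02 (SE 0.77, adjusted p = 0.714). The differences of Alox5ap, Pou2f3, Plcg2 and Trpm5 were smaller, at -0.64, -0.59, -0.54 and -0.49, with adjusted p from edgeR of 0.783 to 0.838. Without the filter on low counts Dclk1 passed, with a log2 fold change of -1.77 (edgeR adjusted p = 0.0333). It was 1 of 76 genes called among the 17790 genes tested in that fit.

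The direction depended on the fit and on a single library. With all 6 libraries, limma-voom gave higher values in the zinc depleted group for Trpm5 (0.27) and Pou2f3 (0.35). Without standard diet replicate 2 all 7 genes had higher values in the zinc depleted group, with log2 fold changes of 0.20 for Dclk1, 1.07 for Trpm5, 0.55 for Avil, 1.13 for Pou2f3, 0.66 for Sh2d6, 0.54 for Alox5ap and 0.92 for Plcg2. Their median became 0.66 (0.03 over all genes of that fit) and the adjusted p from edgeR was 0.999 for each. The summed share of counts went the same way. Its mean was 0.0386% ± 0.0463 on standard diet and 0.0125% ± 0.0106 on zinc depleted diet (SD, n = 3), a difference of -0.0261 percentage points, and without standard diet replicate 2 the standard diet mean was 0.0124% and the difference 0.000107. On total counts, without TMM, the median of the 7 genes was -1.62 while that of all genes was -0.67.

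**Figure D4:**
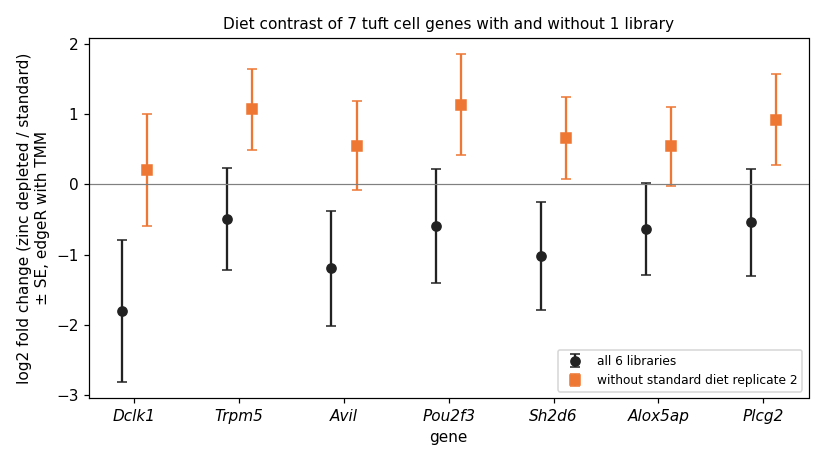
Points give the log2 fold change (zinc depleted over standard diet, y axis) from edgeR with TMM for the 7 tested genes (x axis), with bars of 1 SE. With all 6 libraries (circles) the 7 values lie from -1.80 to -0.49, and without standard diet replicate 2 (squares) they lie from 0.20 to 1.13.

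A wider set of 39 other tuft genes, on 4 lists by role, was mostly highest in the same library. These lists too were chosen with earlier results of these data known, so they describe the pattern and are not independent support. Of the 35 with at least 10 counts, 32 were highest in standard diet replicate 2 (28 with TMM) and 23 were at least 2-fold above every other library there (17 with TMM), to be read beside the 19.9%, 15.1%, 3.05% and 1.81% of all genes given above. Itpr3, Il13ra1 and Runx1 were the exceptions on total counts, the first with its highest value in standard diet replicate 1 and the other two in zinc depleted replicate 1. Without standard diet replicate 2, 34 of the 35 kept at least 10 counts. Tas1r1 and Tslp had no counts. The summed level of the 39 genes was 967, 2358 and 401.3 CPM in standard diet replicates 1, 2 and 3 and 1115, 542.7 and 309.8 CPM in the zinc depleted replicates. The span of 7.61-fold was narrower than the 26.2-fold of the 9 genes, as some of the most abundant members were less uneven.

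In the taste-like signalling list, the phospholipase Plcb2 was at 6.95, 43.3 and 1.2 CPM in the standard diet libraries and 13.5, 4.17 and 0.470 CPM in the zinc depleted ones. The inositol trisphosphate receptor Itpr2 had 26.1 CPM in standard diet replicate 2, 1.80-fold above the next library, and Itpr3 had 32.4 CPM there but 42.5 CPM in standard diet replicate 1. In the eicosanoid list, Alox5, the 5-lipoxygenase that works with Alox5ap, had 59.3 CPM in standard diet replicate 2 and at most 14.6 CPM elsewhere. Ptgs1, a cyclooxygenase, was at 28.7 CPM there, 5.46-fold above the next library on total counts and 2.32-fold with TMM, while the cytosolic phospholipase Pla2g4a was 1.27-fold above the next. The enzyme pair of Alox5ap and Alox5 was thus led by the same library.

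In the receptor and kinase list, the G protein regulator Rgs13 was at 85.5 CPM in standard diet replicate 2, 2.38-fold above the next library on total counts but 1.01-fold with TMM. Il13ra1, a chain of the interleukin-13 receptor, ranged from 35.2 to 104.1 CPM, 2.95-fold. In the list of regulators and structural genes, Kctd12, a partner of GABA-B receptors, was at 80.9, 354.6 and 10.8 CPM in the standard diet libraries and 88.1, 23.4 and 7.36 CPM in the zinc depleted ones. Atp2a3, an endoplasmic reticulum calcium pump, and Plac8 were 1.23-fold and 1.28-fold above the next library, and with TMM Plac8 was highest in zinc depleted replicate 3. None of the 31 tested genes of these lists was called by edgeR, 23 were lower and 8 higher in the zinc depleted group (median log2 fold change -0.59), and without standard diet replicate 2 the counts were 4 lower and 27 higher (median 0.87).

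Markers of other cell types moved in part with the same library. The summed enterocyte list was at 355.2, 380.5 and 91.7 CPM in standard diet replicates 1, 2 and 3 and 134.1, 54.2 and 61.2 CPM in the zinc depleted replicates. Of its abundant markers, Anpep had 99.5 CPM and Slc5a1 61.1 CPM in standard diet replicate 2. Fabp1, Sis and Alpi, chosen here after their values were seen, were at 49.0, 22.2 and 15.2 CPM there and at most 3.27, 2.73 and 0.409 CPM elsewhere. The enteroendocrine list, with Sct, Chgb and Sst as the most abundant genes, was at 92.9, 143.3 and 45.2 CPM in the standard diet group and from 32.1 to 41.3 CPM in the zinc depleted group. Of the 11 other lists, which include the Paneth list, 4 had their highest sum in standard diet replicate 2: enterocyte, enteroendocrine, stroma and neuron and glia, of which the last 2 were under 5 CPM in every library. The part of these cells in the tuft gene levels was not tested.

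Goblet and stem cell lists had other leaders. Goblet genes summed to 5745 CPM in zinc depleted replicate 1 and to 2504 CPM in standard diet replicate 2. The mucin Muc2 made up most of the first sum, at 4532 CPM, and was at 1233 CPM in standard diet replicate 2. Tff3, second of the list by mean CPM, ranged from 614.1 to 865.5 CPM and was highest in zinc depleted replicate 2. Of the 6 goblet genes, 2 were highest in standard diet replicate 2, beside 19.9% of all genes. One of the 2 was Fcgbp, at 468.3 CPM there and 274.9 CPM in zinc depleted replicate 1. Stem cell genes, led by Olfm4, summed to 3701 CPM in standard diet replicate 1 and 1438 CPM in standard diet replicate 2. Zinc depleted replicate 1 and standard diet replicate 1, which had the next highest tuft shares after standard diet replicate 2, were thus the first in the sums of these lists.

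**Figure D5:**
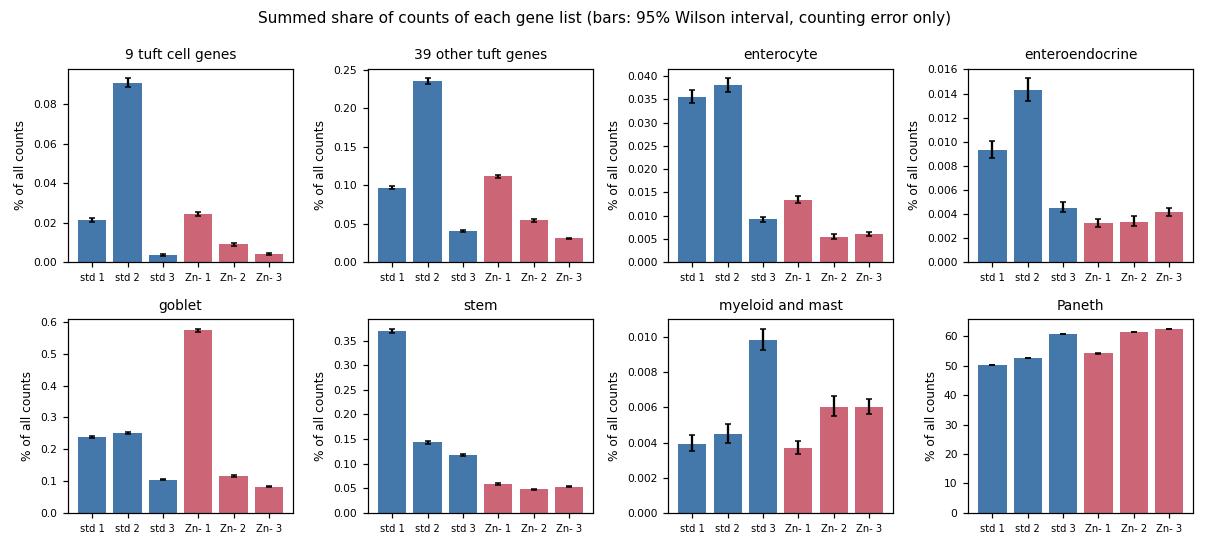
Bars give the summed share of all counts (y axis, percent, from 0, with its own scale in each panel) for 8 gene lists in the 6 libraries (x axis), with Wilson 95% intervals for counting error alone. The 9 tuft cell genes and the 39 other tuft genes peak in standard diet replicate 2, the goblet list in zinc depleted replicate 1 and the stem list in standard diet replicate 1.

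Blood and nerve cells also express some of the 9 genes, among them Plcg2, Alox5ap and Gfi1b in blood cells and Dclk1 and Avil in neurons. The B cell list summed to at most 3.10 CPM and was 0.326 CPM in standard diet replicate 2, and the T cell list had no counts in that library. The myeloid and mast cell list was at 37.0 to 98.4 CPM, most of it Lyz2, with Cpa3, Mcpt1 and Mcpt2 at 0 in every library. Its sum was highest in standard diet replicate 3 and at 44.8 CPM in standard diet replicate 2. Lyz2 is a lysozyme gene like Lyz1, which was at 119500 to 192200 CPM. How reads shared between such genes were handled is not given, so this sum cannot be read as a myeloid level. The erythroid and megakaryocyte list was at most 5.25 CPM with Alas2 and Itga2b at 0, and the neuron and glia list at most 0.814 CPM with Uchl1 and S100b at 0. The part of blood and nerve cells in the tuft gene levels was not tested beyond these values. Without Alox5ap and Plcg2 the difference in summed share between the diets was -0.0216 percentage points, beside the -0.0261 given above. Gfi1b, Dclk1 and Avil stayed in that sum. A difference between diets does not measure the RNA of blood or nerve cells, so it says nothing on their part.

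The genes outside every list whose log2 CPM was most like the log2 summed CPM of the 9 genes over the 6 libraries were named from 9666 candidates. They were Reep5 (Pearson's r = 0.996), Pygl (0.994), Sh2d7 (0.994), Slc25a29 (0.990) and Adcy5 (0.989), and r is given as a description, since the 6 libraries share the same uneven levels and the genes were picked for it. Sh2d7, another SH2 domain adaptor, was at 24.3, 100.3 and 4.21 CPM in standard diet replicates 1, 2 and 3 and 33.1, 9.02 and 3.45 CPM in the zinc depleted replicates. Pygl, a glycogen phosphorylase, was at 73.8 CPM in standard diet replicate 2 and 2.74 to 16.5 CPM in the other libraries. Adcy5, an adenylate cyclase, was at 11.4 CPM in standard diet replicate 2 and 0.470 to 3.00 CPM elsewhere. Reep5, which shapes the endoplasmic reticulum, had a much smaller span, from 78.5 to 160.3 CPM. It followed the order of the summed CPM except in the lowest libraries. Reep5 was at 81.5 CPM in standard diet replicate 3 and 78.5 CPM in zinc depleted replicate 3, where the sums were 34.8 and 40.4 CPM. Slc25a29, a mitochondrial carrier, was at 0.601 to 2.61 CPM.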

How the data were processed

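RNA-seq was performed on FACS sorted Paneth cells, with 3 libraries per group. The authors deposited raw counts per gene with Ensembl identifiers, 1 library per column. The submitters' processing notes name FastQC, Trimmomatic 0.39, STAR 2.7.10a, DESeq2 and the build mm39. For the counting program, strandedness and the handling of multi-mapped reads, the sources used here give nothing. Reads shared with near-identical copies may be lost or split between genes.

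Symbols, positions and canonical transcripts were taken from GENCODE M39 on GRCm39, where 54749 of the 55414 identifiers were found. CPM were computed on total counts. Diets were compared with edgeR 4.0.16 in R 4.3.3 (quasi-likelihood test, TMM, filterByExpr, two-sided, Benjamini-Hochberg adjustment over 9749 genes, threshold 0.05). The SE of a log2 fold change was its size over the square root of F. Alternatives were DESeq2 1.42.0, limma-voom (limma 3.58.1), RLE size factors, total counts only, TMM without Paneth products, no low-count filter, the replicate number as a block and leaving out each library. The procedure was tested on simulated data.

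The 9 genes and all lists were chosen with earlier results of these data known. The text names the 9 genes. From each other tuft list it names any called gene and at most 3 with the highest mean CPM, and at most 3 such markers per other cell type. It also names the 5 genes outside the lists most correlated with the summed CPM (log2, prior count 2). Genes named beyond this rule (the exceptions, the genes at 0, overlapping neighbours, Defa24, Fabp1, Sis and Alpi) were chosen after their values were seen. No pair of libraries of a group agreed within sampling noise. P-values set the difference between the diet groups against the spread between these libraries. Some named genes and a promoter that the rule or the search would give are not reported here.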

Additional observations from a re-analysis of the deposited data

How the results depend on the processing

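The number of the 9 genes highest in standard diet replicate 2 was 9 with total counts, TMM and counts outside Paneth products. The log2 fold changes of the 7 tested genes kept their direction and their side of the threshold in 79 of 91 repeats, reversed in 11 and passed the threshold in 1 (Dclk1 without the low-count filter, which made 1 of the 9 genes called). The reversals were the 7 without standard diet replicate 2, limma-voom for Trpm5 (0.27) and Pou2f3 (0.35), and the replicate block for Trpm5 (0.29) and Pou2f3 (0.21); the cause was not tested. Leaving out each library gave -2.65 to 0.20 for Dclk1, -0.94 to 1.07 for Trpm5, -1.66 to 0.55 for Avil, -1.06 to 1.13 for Pou2f3, -1.48 to 0.66 for Sh2d6, -1.06 to 0.54 for Alox5ap and -1.01 to 0.92 for Plcg2. The genes called in the whole table numbered 10 with DESeq2, 76 of 17790 without the low-count filter and 0 to 28 when a library was left out (28 without standard diet replicate 3). The difference in summed share was -0.0710 percentage points outside Paneth products, where the total is smaller, and -0.0437 to 0.000107 when a library was left out. Lists of other cells led by standard diet replicate 2 numbered 4 of 11, and 3 with TMM or outside Paneth products. Correlations of deviations between same-numbered libraries were 0.147, -0.0584 and 0.248 for replicates 1, 2 and 3. Standard diet replicates 1 and 3 correlated best with the same-numbered library, and standard diet replicate 2 with zinc depleted replicate 1 (0.250). Whether replicate numbers pair the libraries was thus not settled. With the replicate block 0 genes were called, with 962 at an unadjusted p under 0.05. Depth limits Gfi1b and Il25 most, with 68 and 18 counts in all.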
